A study of Mus musculus with 54 samples.

Results

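The genes described here are the machinery that carries newly made secretory proteins into and out of the endoplasmic reticulum (ER). They were chosen by gene symbol, from families of targeting factors, translocon subunits, oligosaccharyltransferase subunits, ER chaperones and disulfide isomerases, vesicle coats, ARF GTPases and cargo receptors. The rule itself uses symbols only, but the group was chosen with earlier results of these data known. The rule found 98 probe sets of 66 genes among the 12422 non-control probe sets of the array. Of these, 87 probe sets of 62 genes were bright enough to test. The other 11 probe sets include every probe set of Calr, Ssr4, Sec24b and Tmed8, and single or paired probe sets of Dad1, Lman1, Arf6, Copz1 and Kdelr2. A set of 25 genes had several probe sets, and the one with the highest mean log2 signal stands for the gene unless another is named.

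In a secretory cell, the signal recognition particle and its receptor (Srpr, Srprb) bring ribosomes to the ER, where the Sec61 channel, the TRAP complex (Ssr1 to Ssr4) and signal peptidase take in and trim the nascent chain. Oligosaccharyltransferase then adds N-glycans, and Hspa5 (BiP), Hsp90b1 (GRP94), calnexin, calreticulin and the protein disulfide isomerases fold the chain. COPII vesicles carry cargo to the Golgi, COPI vesicles bring material back, and KDEL receptors, p24 (Tmed) proteins and the lectin Lman1 sort the load. The unfolded protein response raises many of these genes through Xbp1, Atf6 and Atf4, and the ER chaperones are its classical targets. The lactating mammary epithelium is among the most active secretory tissues, since it exports caseins and whey proteins by this route.

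The data are 54 single-colour Affymetrix arrays, each of 1 inguinal gland (number 4) of 1 mouse with its lymph node taken out, and 18 stages had 3 mice each, called A, B and C here. Virgin glands were taken at 6, 10 and 12 weeks of age, glands of pregnancy at days 1, 2, 3, 8.5, 12.5, 14.5 and 17.5, lactating glands at days 1, 3 and 7, and involuting glands at days 1, 2, 3, 4 and 20. Mating was at 12 weeks with the plug day counted as 0.5, housing was standard, and involution was started by taking away the litter once lactation had lasted 7 days. The labels give no strain, genotype or treatment beyond these stages, and the virgin week 12 glands serve as the control for age at mating.

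Values are MAS5 signals on a linear scale, with a trimmed mean of 100.05 to 100.07 in every array and array medians of 31.8 to 44.6. Differences are log2 differences with the standard error of the limma fit over all 54 arrays, and a probe set was called at a Benjamini-Hochberg adjusted p under 0.05 over 8640 probe sets. Signals are comparable between time points for 1 probe set and not between probe sets. In whole glands, fewer cells of a type and less RNA per cell cannot be told apart. The arrays' 3' to 5' signal ratio for beta-actin, a measure of RNA and labelling quality, averaged 1.98 ± 0.493 (SD, n = 3) in the virgin week 12 glands, 2.24 ± 0.459 in those of pregnancy day 17.5, 1.6 ± 0.173 at lactation day 1, 1.83 ± 0.29 at lactation day 7 and 1.66 ± 0.244 at involution day 2.

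The promoters of several folding genes share a response element. The ER stress response element (ERSE), the site bound by Atf6 with NF-Y, has the letters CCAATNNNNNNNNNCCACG, or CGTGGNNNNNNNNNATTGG in the reverse orientation. RefSeq promoters on GRCm38.p6, reaching from 250 bases before to 50 after the start, were matched for 57 of the 66 genes. The element was found in 5 of them, Hspa5, Hsp90b1, Pdia6, Canx and Calr, all ER chaperones or isomerases. The other folding genes, P4hb, Pdia3, Pdia4 and Pdia5, were not among those with the element. Which of them were among the 57 matched genes is not given here. The element was held by 0.119% of the 32851 RefSeq promoters and by 0.137% of all genes with a promoter. The windows of the 4 genes that were measured are shown as a description. Whether the element has a part in any change of these genes was not tested. Capitals mark the fixed letters of the element, and each window runs 5′ to 3′ on the strand of the gene.
Hspa5, chr2:34772005-34772063, plus strand: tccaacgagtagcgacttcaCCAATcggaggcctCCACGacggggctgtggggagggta
Hsp90b1, chr10:86705513-86705571, minus strand: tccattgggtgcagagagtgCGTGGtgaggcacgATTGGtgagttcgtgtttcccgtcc
Hsp90b1, chr10:86705618-86705676, minus strand: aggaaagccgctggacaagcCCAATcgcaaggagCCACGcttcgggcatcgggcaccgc
Pdia6, chr12:17266471-17266529, plus strand: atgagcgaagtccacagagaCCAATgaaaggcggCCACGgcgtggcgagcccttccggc
Canx, chr11:50325780-50325838, minus strand: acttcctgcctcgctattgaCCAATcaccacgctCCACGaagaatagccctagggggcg
The first Hsp90b1 window carries the element in reverse. The related ERSE-II, ATTGG and CCACG with 1 base between them on either strand, was in 0 member promoters and in 0.0365% of all promoters. The core TGACGTG of the unfolded protein response element, on either strand, was in 8 promoters of 7 member genes (Arf1, Copb1, Copb2, Hspa5, Kdelr3, Sec23a and Srpr), in 2.01% of all promoters and in 2.22% of all genes with a promoter. A letter match is a description of these windows and not a measured binding site.

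Across the 18 time points, 77 of the 87 probe sets changed by the F test, 88.5% against 88.1% of all probe sets tested, so that share is near the background. The peaks were placed as follows. Of the 77, 48 (62.3%) had their highest mean in lactation, against 30.9% of all changed probe sets, and 4 (5.19%) peaked in pregnancy, against 23.1%. Lactation day 1 held 18 of the peaks (23.4%, all probe sets 4.99%) and lactation day 3 held 19 (24.7%, all 8.11%). By role, lactation was the peak for 7 of 8 targeting, 12 of 17 translocon and signal peptidase and 5 of 9 oligosaccharyltransferase probe sets. The same held for 10 of 16 of the COPI coat and ARF group and 4 of 5 of the COPII coat. Among the cargo receptors it was the peak for 6 of 10, and in the folding group for 4 of 11. Involution day 2 was the peak for 7 probe sets (9.09%, all 4.02%), those of Hspa5, Pdia3, Pdia4, Pdia6, Sec11a, Spcs2 and Lman2. The 10 probe sets without a called change were 1 each of Srp19, Sec62, Sec31a, Copb1, Stt3a, Canx, Sec23a and Tmed7 and a pair of Sec22b.

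**Figure D1:**
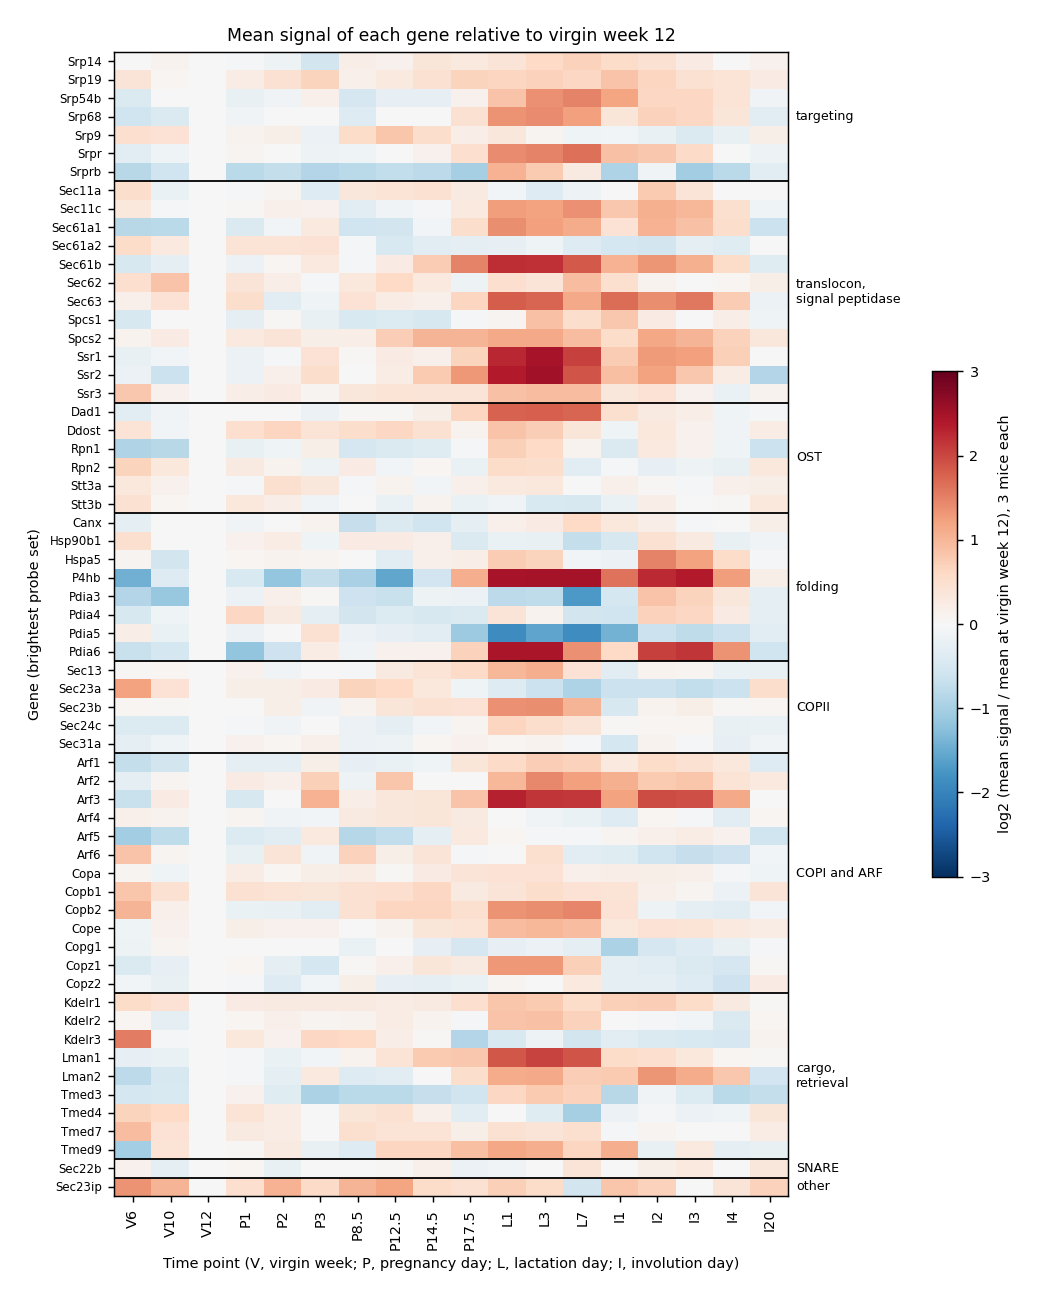
Mean log2 signal of each of the 62 measured genes (rows, grouped by role) at the 18 time points (columns), shown as the log2 ratio to the gene's mean at virgin week 12 (red higher, blue lower); each cell averages 3 mice. Most rows of the targeting and translocon groups are darkest red in lactation, while Hspa5, Pdia3 and Pdia4 are highest at involution day 2.

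The number of members called in mid pregnancy depended on the fit. At pregnancy day 14.5 against virgin week 12, 4 of the 87 probe sets were higher (Spcs2, Ssr2, Sec61b and Lman1) and 2 lower, where 8.82% of all probe sets were higher and 8.85% lower. Spcs2, a signal peptidase subunit, had signals of 349.6, 358 and 314 in mice A, B and C at day 14.5 and 142, 197 and 170.2 in virgins. This was a log2 difference of 1.02 ± 0.19 (2.02-fold, adjusted p = 0.00017), with every pregnant gland above every virgin one. Lman1, the cargo receptor ERGIC-53, had 381, 309.9 and 365 against 197, 197.5 and 217, a difference of 0.78 ± 0.15 (adjusted p = 0.00018), again without overlap. The TRAP subunit Ssr2 (0.79 ± 0.23, adjusted p = 0.014) and the channel subunit Sec61b (0.75 ± 0.25, adjusted p = 0.029) were also higher. Calnexin (Canx), with 66.6, 63.1 and 88 in pregnancy and 98.7, 130.4 and 99.8 in virgins, was lower (difference -0.60 ± 0.19, adjusted p = 0.028), but its dimmer probe set was not called. For Lman2, 1 of the probe sets was lower while the brighter one was not called. Each left-out mouse of either stage ended the Sec61b call (adjusted p = 0.053 to 0.082), virgin mouse B and pregnant mice A and C that of Ssr2 (0.052 to 0.071), and virgin mouse B and pregnant mice A and B that of Canx (0.096 to 0.16). The Canx call also ended with median scaling (adjusted p = 0.088) and with only the 6 arrays fitted (0.055). The count of higher calls dropped to 2 without virgin mouse B, without pregnant mouse A or without pregnant mouse C, and the lower count to 1 without virgin mouse B or pregnant mouse A and to 0 without pregnant mouse B. Median scaling of the arrays, which moved the median of all probe sets from -0.09 to 0.09, gave 10 higher and 1 lower. Fitting only the 6 arrays gave 18 higher and 4 lower, and array quality weights gave 17 and 5. The counts over all probe sets under these fits are not given here. In the same step 9 of 10 milk genes and 5 of 10 luminal markers rose, and 4 of 8 adipocyte and 4 of 7 plasma and B cell markers fell. Their part in the result was not tested.

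On the first day of lactation the calls were all rises. Against pregnancy day 17.5, 31 of the 87 probe sets, of 24 genes, were higher at lactation day 1 and 0 were lower in limma (2 at an unadjusted p under 0.05). Of all probe sets, 10.1% were higher and 13.2% lower, and the median difference was 0.48 for the members and 0.00 for all. The calls reached every arm of the pathway except the SNARE Sec22b. They took in 4 of 9 targeting, 8 of 18 translocon and signal peptidase, 5 of 10 oligosaccharyltransferase, 3 of 12 folding, 3 of 7 COPII, 5 of 17 COPI and ARF and 3 of 11 cargo receptor probe sets.

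**Figure D2:**
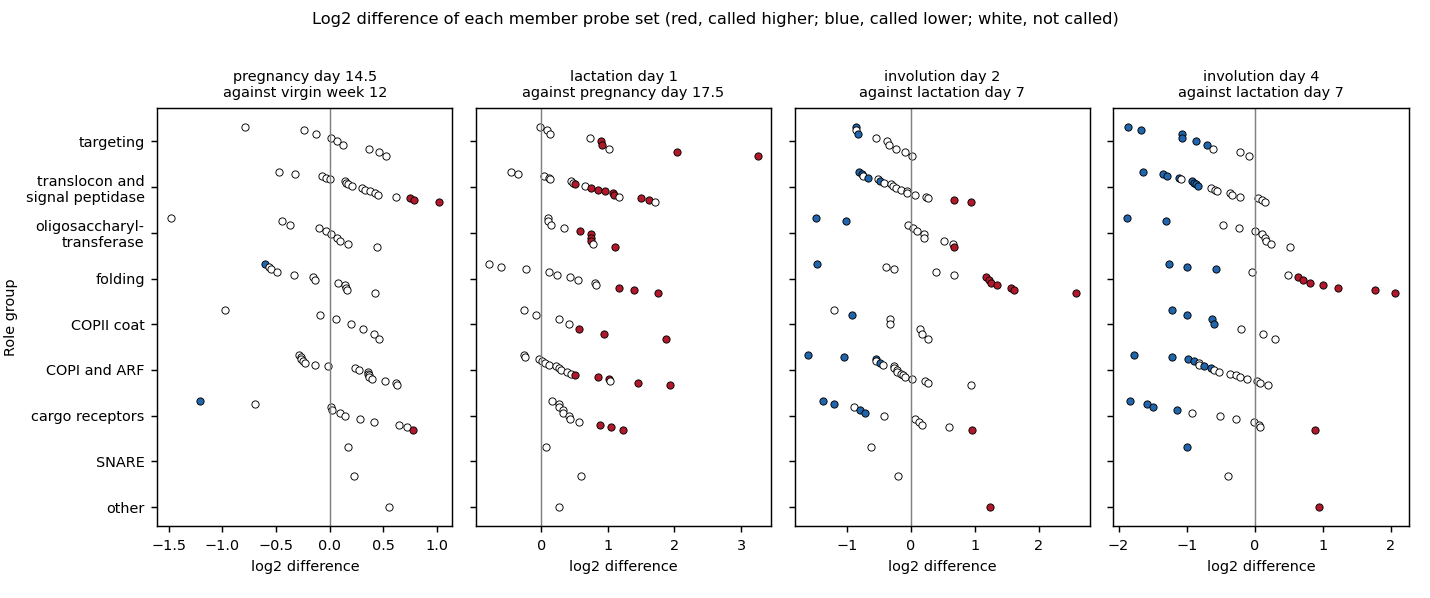
Log2 difference of each tested member probe set (points) by role, in 4 comparisons of time points, with red for higher calls, blue for lower calls and white for probe sets not called. At lactation day 1 the calls lie above 0, at involution day 4 most lie below 0, and 7 of the 9 calls above 0 at involution day 4 are of the folding group.

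Among the targeting factors, the receptor subunit Srpr gave 998, 1083 and 931 in mice A, B and C at pregnancy day 17.5 and 1633, 2088 and 1975 at lactation day 1. It rose by 0.91 ± 0.14 (1.88-fold, adjusted p = 8.8e-06), with all lactating glands above all pregnant ones. A second, dimmer Srpr probe set rose too, from 199, 25 and 13 to 279, 339 and 586. Srprb, which anchors the receptor in the membrane, was near the floor of 9.4 in late pregnancy (9.8, 9.3 and 9.8) and at 43.1, 39.5 and 36.8 on lactation day 1. Its difference was 2.04 ± 0.32 (adjusted p = 8.8e-06). This dim probe set reached 44.6 at most in any array. Its lactation day 1 arrays were bright enough to admit it to the tests, and its late pregnancy arrays were not. The brightness filter and this Srprb test therefore share arrays and are not independent. Srp68, a protein of the signal recognition particle, rose from 450.4, 344 and 235 to 626, 646 and 581, by 0.90 ± 0.21 (adjusted p = 0.002). Probe sets of Srp9, Srp14 and Srp19, smaller proteins of that particle, were not called here.

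At the translocon, 3 TRAP subunits rose. Ssr1 went from 309.5, 215 and 113.5 to 573, 624 and 599, a difference of 1.61 ± 0.23 (3.05-fold, adjusted p = 2.2e-06). Ssr2 went from 384, 306 and 258 to 668, 663.5 and 647, by 1.08 ± 0.23 (adjusted p = 0.00065). In both genes the glands of the stages did not overlap, and the pregnant glands were spread more widely than the lactating ones. Ssr3 was higher by 0.50 ± 0.18 (adjusted p = 0.036). The channel itself rose in its alpha subunit Sec61a1 (1134, 864 and 816 to 1813, 1827 and 1410.0; 0.85 ± 0.28, adjusted p = 0.025) and its beta subunit Sec61b (1076, 1001 and 1118 to 1815, 1849.6 and 1656; 0.74 ± 0.25, adjusted p = 0.027). The signal peptidase catalytic subunit Sec11c had 113, 71.5 and 90.4 and then 169.5, 169.8 and 180.5, a difference of 0.95 ± 0.24 (adjusted p = 0.0036). Sec63, which couples Hspa5 to the channel, differed by 1.17 ± 0.51 without passing (adjusted p = 0.089). Sec61a1 and Ssr3 each also had a dimmer probe set that was not called. Under quantile normalization Sec61a1, Sec61b and Ssr3 lost their calls (adjusted p = 0.053, 0.07 and 0.12). Leaving out mouse B or C of pregnancy day 17.5, or mouse A or B of lactation day 1, ended those of Sec61a1 (0.068 to 0.098) and Sec61b (0.051 to 0.09), and each left-out mouse but C of lactation day 1 ended that of Ssr3 (0.058 to 0.13).

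Of the 6 measured genes of oligosaccharyltransferase, 4 were higher. Dad1 rose from 1435, 1518.5 and 1089.6 to 2738, 3118 and 2811, by 1.11 ± 0.16 (2.16-fold, adjusted p = 2.8e-06), with no overlap. Rpn2 had 532, 367 and 302 and 776, 644 and 565 (0.75 ± 0.17, adjusted p = 0.0014). Ddost and Rpn1 were higher by 0.75 ± 0.21 and 0.74 ± 0.24 (adjusted p = 0.0094 and 0.021). The Rpn1 call ended without mouse A of pregnancy day 17.5 (adjusted p = 0.1), or mouse A (0.083) or B (0.061) of lactation day 1. Dad1 and Rpn1 each also had a dimmer probe set that was not called. Neither catalytic subunit, Stt3a or Stt3b, was called.

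The chaperones themselves were not called. Hspa5 had 793, 811 and 871 at pregnancy day 17.5 and 1635, 949 and 1142.5 at lactation day 1, a difference of 0.55 ± 0.24 that did not pass (adjusted p = 0.092). Hsp90b1 overlapped between the stages (0.23 ± 0.28, adjusted p = 0.58). Pdia4 differed by 0.82 ± 0.32 (adjusted p = 0.057) and Pdia3, the isomerase ERp57, by -0.61 ± 0.30 (adjusted p = 0.14), neither of them called. The folding calls were P4hb, the founding disulfide isomerase (686, 178 and 509.8 to 1007, 1120.4 and 998; 1.39 ± 0.49, adjusted p = 0.033), and Pdia6 (375, 195 and 73.1 to 769, 570.5 and 463; 1.75 ± 0.56, adjusted p = 0.019). Both had wide pregnant groups: without mouse B of pregnancy day 17.5 the adjusted p of P4hb was 0.3, and without mouse C that of Pdia6 was 0.19. Without 1 mouse of lactation day 1 they were 0.059 to 0.1 for P4hb (mouse A, B or C) and 0.056 to 0.067 for Pdia6 (mouse A or B). The other probe sets of Pdia6 were not called.

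In the coats, the COPII subunit Sec23b rose from 228, 221 and 116 to 400.5, 310.4 and 330.5 (0.94 ± 0.25, adjusted p = 0.0055), whereas its paralog Sec23a had 172, 197 and 167 and 155, 159 and 133 and was not called (-0.26 ± 0.22, adjusted p = 0.42). The cargo adaptor Sec24c was higher by 0.56 ± 0.14 (adjusted p = 0.0041). Of the COPI coat, Copz1 went from 601, 681 and 413 to 969.7, 1258 and 1166.5, a rise of 1.02 ± 0.16 (2.03-fold, adjusted p = 7.8e-06) without overlap. The GTPase Arf3 had 291, 119.5 and 142 and then 423, 567 and 417, a rise of 1.45 ± 0.36 (adjusted p = 0.0032). A dimmer Arf3 probe set was not called. Copb2 rose on its brighter probe set (0.85 ± 0.30, adjusted p = 0.034) but not on the other (-0.03 ± 0.26). Without mouse C of pregnancy day 17.5 the adjusted p of Sec23b was 0.096, and for Copb2 every left-out mouse but B of pregnancy day 17.5 ended the call (0.066 to 0.094). Arf1 and Copa were not called.

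Of the cargo receptors, Lman1 rose from 393, 326 and 359 to 689, 769 and 760.3, a difference of 1.04 ± 0.15 (2.06-fold, adjusted p = 1.7e-06). Tmed3 rose from 546.5, 553 and 425 to 946, 1138 and 1526 (1.23 ± 0.26, adjusted p = 0.00067), and Kdelr2, a receptor that returns ER residents from the Golgi, from 145.5, 188 and 162 to 400.0, 277 and 251 (0.88 ± 0.21, adjusted p = 0.0015). None of the 3 genes overlapped between stages.

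Other markers moved over the same step. Of 10 luminal markers 2 fell, with summed signals of 4695 to 6719 in late pregnancy and 3157 to 4835 at lactation day 1. In 10 milk genes 4 rose (sums of 37283 to 52156 and then 77905 to 78590), 6 of 8 adipocyte markers fell (6452 to 9678, then 4641 to 5433) and 7 of 9 fibroblast markers fell (6243 to 9938, then 3628 to 4477). No marker of these lists was at the floor in every array of these stages. The ratio of 3' to 5' signal for Gapdh was 0.996 to 3.12 in the pregnant glands and 0.948 to 1.04 in the lactating ones. The part of these shifts in the result was not tested. Fitting only the 6 arrays of the comparison gave 15 higher calls in place of 31, and leaving out 1 array gave 23 to 32.

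Within lactation 8 members fell. At day 7 against day 1, 8 of the 87 probe sets were lower and 0 higher in limma (18 lower and 3 higher at an unadjusted p under 0.05), where 2.41% of all probe sets were higher and 2.88% lower. The oligosaccharyltransferase subunit Rpn2 had 776, 644 and 565 at day 1 and 363, 343 and 351 at day 7, so it fell by 1.86-fold (log2 difference -0.90 ± 0.17, adjusted p = 0.0008). Every day 7 gland was below every day 1 gland on this brighter probe set, and the day 7 mice lay close together. The dimmer Rpn2 probe set was not called. Hspa5 fell from 1635, 949 and 1142.5 to 552.5, 813 and 693 (-0.84 ± 0.24, adjusted p = 0.033). The p24 protein Tmed4 (-1.02 ± 0.24), the COPII subunit Sec13 (-0.57 ± 0.16), the coat subunit Copz1 (-0.59 ± 0.16) and the Sec23 partner Sec23ip (-1.27 ± 0.32) were lower as well. 1 probe set each of Sec61a1 and Arf3 completed the 8. The count depended on single mice, at 3 without mouse A of day 1 or mouse C of day 7, 4 without mouse B of day 1 or mouse A of day 7, and 5 without mouse C of day 1. The Hspa5 call was lost without mouse A (adjusted p = 0.25) or C (0.055) of day 1, and without mouse A (0.16) or C (0.076) of day 7. That of Tmed4 ended without mouse A of day 1 (0.06) or C of day 7 (0.057), that of Sec23ip without mouse A of day 1 (0.066) or of day 7 (0.14), and that of Copz1 without mouse B (0.086) or C (0.064) of day 1 or B of day 7 (0.074). The Sec13 call ended for every left-out mouse but C of day 1 (0.053 to 0.15). Fitting only the 6 arrays ended all 8 calls.

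Established lactation still differed widely from the virgin gland. At lactation day 7 against virgin week 12, 35 probe sets of 31 genes were higher and 8 of 7 genes lower, where 24.3% of all probe sets were higher and 27.2% lower. The median was 0.44 for the members and -0.01 for all. The virgin arrays are those of the day 14.5 comparison and the day 7 arrays those of the involution comparisons, so these results share samples. Targeting (6 of 9), translocon (9 of 18), COPI and ARF (6 of 17) and oligosaccharyltransferase (2 of 10) had higher calls with no lower call, while the folding group was divided, with 4 higher and 5 lower of 12. Without mouse A of lactation day 7 the folding counts were 2 higher and 3 lower.

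The secretory route showed differences of more than 3-fold in several members. Lman1 had 197, 197.5 and 217 in virgins and 699, 769 and 794.5 at lactation day 7, a rise of 1.89 ± 0.15 (3.7-fold, adjusted p = 4e-14). Dad1 went from 760.4, 943 and 862 to 2984, 2704 and 2937 (1.75 ± 0.16, adjusted p = 5.3e-12), and Srpr from 703, 698 and 724 to 2271, 2009 and 2383 (1.65 ± 0.14, adjusted p = 8.6e-13). In these 3 genes the spread within a stage was small against the gap, and no glands overlapped. Sec61b rose from 367, 377 and 397 to 1492, 1418.5 and 1197 (3.58-fold, 1.84 ± 0.25, adjusted p = 4.3e-08). Ssr1 rose from 124, 137.5 and 113 to 499.8, 557 and 485 (4.12-fold, 2.04 ± 0.23, adjusted p = 1e-09), although its second probe set was not called. Arf3 (2.11 ± 0.36) rose on 1 of 3 probe sets. Arf1, the main COPI GTPase, was higher by 0.68 ± 0.22 (adjusted p = 0.0096), and quantile normalization ended that call (adjusted p = 0.68).

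The folding genes moved in both directions. P4hb had 171, 149 and 256 in virgins and 963, 1042 and 1197 in lactation (5.69-fold, 2.51 ± 0.49, adjusted p = 3.7e-05), without overlap. These values are of a probe set with an r suffix, which may be less specific. The dimmer P4hb probe set, also called higher, reached 47.5 at most in any array. Pdia3 went the other way: its signals were 311, 329 and 482.5 in virgins and 79.2, 129.8 and 132.5 in lactation, a fall of 3.31-fold (-1.73 ± 0.30, adjusted p = 6.8e-06). Pdia5 was also lower, at 59.9, 39.3 and 39.2 and then 19.3, 6.9 and 10.5 (-1.87 ± 0.32, adjusted p = 6e-06), with 1 of the lactating glands under the floor. Hspa5 had 702, 793.5 and 665 and 552.5, 813 and 693, overlapping and not called (-0.08 ± 0.24, adjusted p = 0.79). Hsp90b1 was lower, with 986, 1315 and 1084 and then 599, 725 and 732.5 (-0.71 ± 0.28, adjusted p = 0.029), and the call was lost without virgin mouse B (adjusted p = 0.11) or C (0.052) or lactating mouse A (adjusted p = 0.099). Canx and Pdia6 each had probe sets called in both directions, so no direction is given for these genes. For Canx the differences were 0.59 ± 0.19 and -0.92 ± 0.29, and for Pdia6 they were 1.38 ± 0.56, -0.36 ± 0.41 (not called) and -1.87 ± 0.40. The higher Canx call ended without lactating mouse A (adjusted p = 0.053), and the higher Pdia6 call without any 1 mouse but C of lactation (0.055 to 0.12).

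The paralogs Sec23a and Sec23b, inner subunits of the COPII coat, went opposite ways. Sec23b had 126.5, 151 and 127 in virgins and 261, 306 and 255 at lactation day 7 (1.02 ± 0.25, adjusted p = 0.00073), while Sec23a had 195, 195 and 198 and 128, 91.2 and 95 (-0.92 ± 0.22, adjusted p = 0.00068). All lactating glands lay above all virgin glands for Sec23b and below them for Sec23a. A second Sec23b probe set was not called. Tmed4, with 351, 392 and 417 and 225, 205 and 152, was the 1 cargo receptor that was lower (-1.01 ± 0.24, adjusted p = 0.00041). Of the markers, 10 of 10 milk genes rose, 4 of 10 luminal markers rose and 3 fell, and 6 of 8 adipocyte, 8 of 9 fibroblast, 6 of 8 macrophage and 5 of 6 endothelial markers fell, with 1 macrophage and 1 endothelial marker higher. Summed fibroblast signals were 15447 to 17306 in virgins and 1875 to 2606 in lactation, adipocyte sums 12483 to 13345 and 3903 to 4656, and endothelial sums 1479 to 1612 and 570 to 698. The Gapdh 3' to 5' ratio was 2.22 to 4.98 in the virgin glands and 1.16 to 1.69 in the lactating ones, without overlap. The part of these shifts in the result was not tested.

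**Figure D3:**
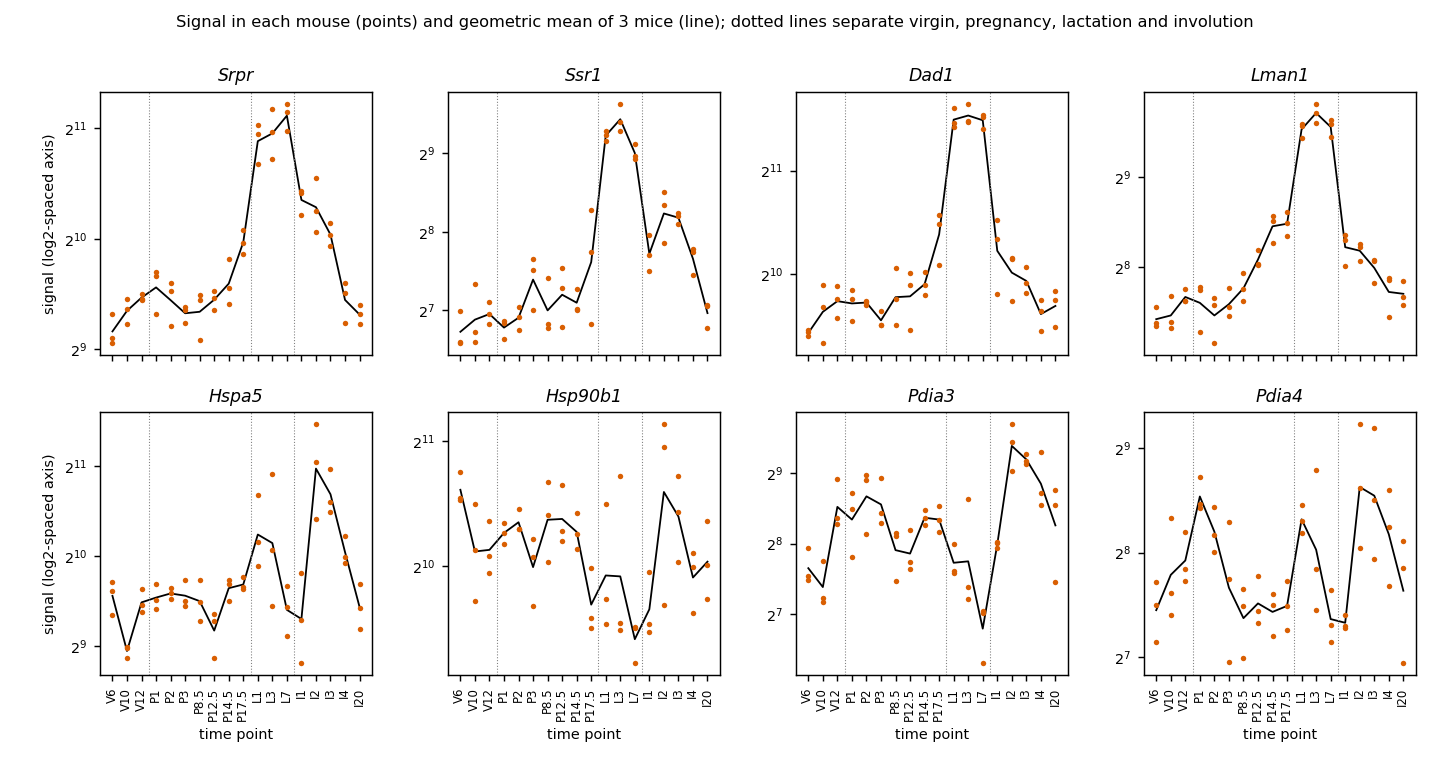
Signals (log2-spaced axis) of 8 members over the 18 time points, with points for single mice and lines through the geometric means. Srpr, Dad1 and Lman1 form a plateau in lactation and drop at involution day 1, whereas Hspa5 and Pdia3 are low at lactation day 7 and highest at involution day 2.

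Pup removal was followed by a fall within a day. At involution day 1 against lactation day 7, 24 of the 87 probe sets were lower and 3 higher, where 11.3% of all probe sets were lower and 14.1% higher. Lman1 fell from 699, 769 and 794.5 to 259, 327 and 316 (2.52-fold, -1.33 ± 0.15, adjusted p = 2.2e-09). Dad1 fell to 895, 1473 and 1294 (-1.27 ± 0.16, adjusted p = 7.1e-08), and Ssr1 to 181, 249 and 208 (-1.28 ± 0.23, adjusted p = 4e-05). None of these overlapped with lactation. Tmed3 went from 1452, 1118 and 1169 to 402.5, 442 and 451 (-1.52 ± 0.26, adjusted p = 1.9e-05) and Sec23b from 261, 306 and 255 to 120.2, 77.7 and 93.9 (-1.51 ± 0.25, adjusted p = 9e-06). The dimmer Sec23b probe set was not called. Srpr had 1185, 1381 and 1361, lower by 1.7-fold (adjusted p = 6.7e-05). The higher calls were Pdia3, Tmed4 and Sec23ip. Pdia3 had 245, 259 and 259 against 79.2, 129.8 and 132.5 (1.20 ± 0.30, adjusted p = 0.0024), and Tmed4 had 288, 412 and 338 against 225, 205 and 152 (0.84 ± 0.24, adjusted p = 0.0064; 0.06 without lactating mouse C). Hspa5 (-0.10 ± 0.24) was not called. In this step 5 of 10 luminal markers rose and 6 of 9 fibroblast and 2 of 8 macrophage markers rose. Summed macrophage signals were 1675 to 2047 at lactation day 7 and 7795 to 8960 at involution day 1. Luminal sums were 3728 to 3893 and then 5021 to 6731, and fibroblast sums 1875 to 2606 and then 2372 to 4440. The Gapdh 3' to 5' ratio was 1.16 to 1.69 at lactation day 7 and 1.34 to 3.54 at involution day 1, with overlap. The part of these markers and of this ratio in the falls was not tested.

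On involution day 2 the folding genes rose while many other members were low. This comparison was added after the values were seen, since 7 members peaked on that day, so its folding values describe a peak already noticed. Against lactation day 7, 12 probe sets were higher and 18 lower, where 17.2% of all probe sets were higher and 14.7% lower. In the folding group 7 of 12 were higher and 1 lower, with a median difference of 1.20, against -0.00 for all probe sets tested. All 7 calls in the targeting, COPII and COPI groups were lower.

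Hspa5, the Hsp70 chaperone of the ER lumen, had 552.5, 813 and 693 at lactation day 7 and 2824, 2108.5 and 1361 at involution day 2 (2.96-fold, 1.57 ± 0.24, adjusted p = 2.3e-06). Pdia3, which acts with calnexin on glycoproteins, had 79.2, 129.8 and 132.5 and then 826, 691 and 523 (6.03-fold, 2.59 ± 0.30, adjusted p = 5.5e-09). Neither gene overlapped between the days, and mouse C was the lowest of the involuting glands in both. Pdia4 rose from 141, 200.5 and 158 to 393, 598 and 263 (1.26 ± 0.32, adjusted p = 0.0022). Hsp90b1, the Hsp90 of the ER, rose from 599, 725 and 732.5 to 2244, 1983 and 826 (1.18 ± 0.28, adjusted p = 0.00098; 0.057 with only the 6 arrays fitted), and mouse C was again the lowest. Of the probe sets of Pdia6, 2 were higher, by 1.62 ± 0.41 and 1.34 ± 0.40, and the brightest was not called (0.68 ± 0.56). Pdia5 had 26.1, 41.7 and 22, higher by 1.22 ± 0.32 (adjusted p = 0.0033), a dim value whose call ended with a floor at the 40th percentile (adjusted p = 0.18). Canx, which also carries the ERSE letters, was not called on either probe set. P4hb was lower on its dimmer probe set (difference -1.47 ± 0.34) and not called on the brighter one. Leaving out 1 array gave counts of 6 to 7 higher folding probe sets, and fitting only the 6 arrays gave 4.

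On the same day Dad1 was down to 1134, 1139 and 851 (-1.48 ± 0.16, adjusted p = 1.8e-09) and Lman1 to 298, 307 and 268 (-1.37 ± 0.15, adjusted p = 9.8e-10). Srpr was lower by 1.77-fold and Copz1 by 2.07-fold (adjusted p = 1.6e-05 and 1.7e-06). The dimmer Srpr probe set was not called. Copb2 fell from 1491, 1697 and 1562 to 461, 436 and 698 on its brighter probe set (-1.61 ± 0.30, adjusted p = 4.5e-05), and the other was not called. Outside the folding group, the signal peptidase subunit Sec11a (205, 328 and 331 to 652, 472 and 510.5; 0.94 ± 0.26, adjusted p = 0.0042) and the glycosylation subunit Stt3b (0.68 ± 0.22, adjusted p = 0.015) were higher, and without lactating mouse A neither call stood (adjusted p = 0.052 and 0.13). Without involuting mouse C that of Stt3b was 0.058. The dimmer Sec61a1 probe set, Tmed4 and Sec23ip were higher as well, and the brighter Sec61a1 probe set was not called. The Sec23ip call ended with only the 6 arrays fitted (adjusted p = 0.078) or without lactating mouse A (0.055). The count of lower probe sets was 11 without involuting mouse C. Macrophage markers rose in 7 of 8 cases, with sums of 1675 to 2047 at lactation day 7 and 7733 to 8616 at involution day 2. Fibroblast markers rose in 8 of 9 (1875 to 2606, then 4996 to 7705). Of 10 luminal markers 5 rose and 1 fell (sums of 3728 to 3893, then 5770 to 6272). In 10 milk genes 2 fell, and of 8 adipocyte markers 4 rose and 1 fell. Summed plasma and B cell signals were 762 to 946 and then 967 to 1184. The part of these lists in the chaperone rise was not tested.

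**Figure D4:**
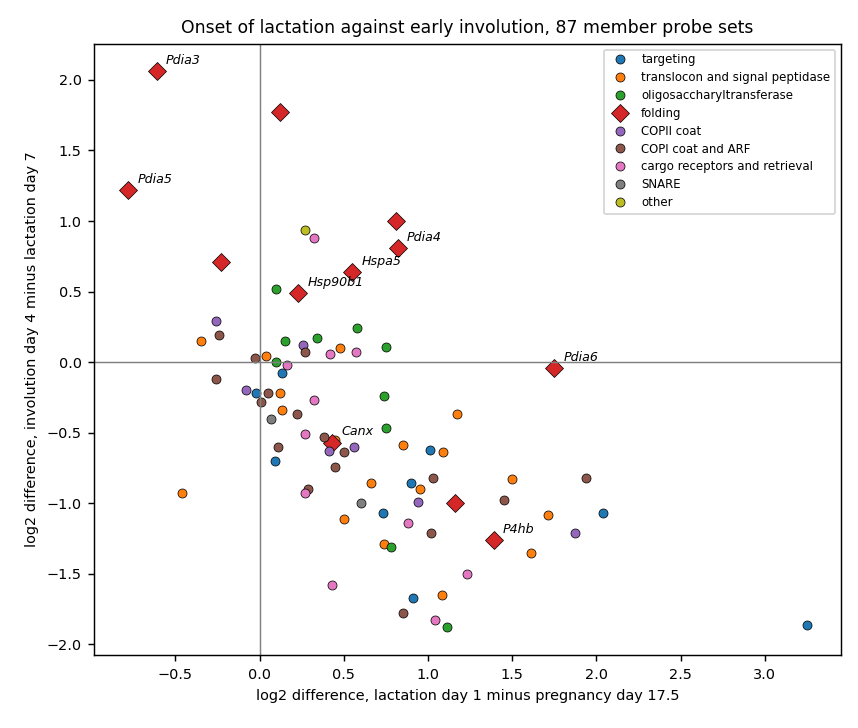
Log2 difference of each tested member at lactation day 1 against pregnancy day 17.5 (horizontal axis) and at involution day 4 against lactation day 7 (vertical axis), coloured by role. Of the 31 probe sets higher at lactation day 1, 23 were lower at involution day 4, and 7 of the 9 probe sets higher at involution day 4 are of the folding group.

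At involution day 4 the lower calls outnumbered the higher ones. Against lactation day 7, 34 of the 87 probe sets were lower and 9 higher, where 21.7% of all probe sets were lower and 22.7% higher, with medians of -0.53 for the members and -0.03 for all. Dad1 was at 856, 696 and 799 (3.68-fold lower, -1.88 ± 0.16, adjusted p = 1.7e-12), Lman1 at 236.5, 174 and 232 (-1.83 ± 0.15, adjusted p = 2.2e-13) and Srpr at 603.5, 728 and 774 (-1.67 ± 0.14, adjusted p = 1.3e-12). The virgin week 12 glands had 760.4, 943 and 862 for Dad1, 197, 197.5 and 217 for Lman1 and 703, 698 and 724 for Srpr, so the ranges of these stages overlapped. Copb2 had 411, 477 and 502 (-1.78 ± 0.30, adjusted p = 5e-06), and its other probe set was not called. The TRAP subunit Ssr2 fell from 506, 468.5 and 435 to 119, 152 and 184.5 (3.14-fold, -1.65 ± 0.23, adjusted p = 1.7e-07), and Sec61b to 517, 524 and 642.5 (-1.29 ± 0.25, adjusted p = 4.1e-05). Sec61a1 and Sec23a were not called.

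Of the 9 higher probe sets at involution day 4, 7 were of the folding group. Pdia3 had 419.7, 373 and 627 against 79.2, 129.8 and 132.5 at lactation day 7 (4.16-fold, 2.06 ± 0.30, adjusted p = 4.1e-07), with no overlap. Hspa5 had 1019.7, 971 and 1193 (0.64 ± 0.24, adjusted p = 0.029) and Pdia4 302, 206 and 387 (0.81 ± 0.32, adjusted p = 0.037). Hsp90b1 was not called (0.49 ± 0.28, adjusted p = 0.15). Tmed4 and Sec23ip were the higher members outside the group. P4hb was lower again (-1.26 ± 0.49, adjusted p = 0.032), and the probe sets of Canx were called in opposite directions. Several of these calls rest on single mice: without lactating mouse A the 9 higher calls became 4 and the folding count 3, and without involuting mouse C the 9 became 5. The folding count was also 3 without mouse A or mouse C of involution day 4, and 4 without lactating mouse C. For Hspa5 the adjusted p was 0.14 or 0.055 without lactating mouse A or C and 0.05 or 0.1 without involuting mouse A or C. For Pdia4, leaving out the same mice gave 0.085 to 0.18. The Sec23ip call ended without lactating mouse A (0.19) or B (0.052), and the P4hb call for every left-out mouse but C of involution day 4 (0.051 to 0.17). Among the markers, 9 of 9 fibroblast, 7 of 8 macrophage, 6 of 8 adipocyte, 4 of 6 endothelial and 5 of 10 luminal markers rose, while 1 adipocyte, 1 endothelial and 2 luminal markers, 2 of 6 basal markers and 7 of 10 milk genes fell. From lactation day 7 to involution day 4, summed macrophage signals went from 1675 to 2047 up to 8457 to 9418. Fibroblast sums went from 1875 to 2606 up to 8927 to 12523 and adipocyte sums from 3903 to 4656 up to 7633 to 9530. Endothelial sums went from 570 to 698 up to 1001 to 1751 and luminal sums from 3728 to 3893 up to 4220 to 6975. The Gapdh 3' to 5' ratio was 1.16 to 1.69 at lactation day 7 and 0.927 to 4.42 at involution day 4. The part of these shifts in the result was not tested.

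The probe sets that rose at parturition were largely those that fell after weaning, and this held for the array in general. Of the 31 member probe sets higher at lactation day 1, 23 (74.2%) were lower at involution day 4 and 0 were higher. Among all 874 probe sets higher at lactation day 1, 629 (72%) were lower and 12 (1.37%) higher, so the share for the members is near the background. After 20 days of involution, 1 member probe set was higher and 1 lower than at virgin week 12, where 1.27% of all probe sets were higher and 1.37% lower. Ssr2 had 40.9, 81.2 and 102 against 127, 121 and 134 (-0.87 ± 0.23, adjusted p = 0.028), a call that ended on leaving out mouse A of involution day 20 (adjusted p = 0.42) or any virgin mouse. The dimmer P4hb probe set was higher, at 30.1, 29.2 and 28.6 against 7.4, 5 and 14.3, and the brighter one was not called. That P4hb call ended without virgin mouse A, without virgin mouse B and with the floor at the 40th percentile.

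The other genes of the pathway, a list of 64 regulators, co-chaperones, degradation factors and trafficking proteins, had 53 genes measured with 68 probe sets. At lactation day 1 against pregnancy day 17.5, 20 probe sets of this list were higher and 5 lower (all probe sets 10.1% and 13.2%). At lactation day 7 against virgin week 12, 26 were higher and 12 lower (all 24.3% and 27.2%). Against lactation day 7, 16 were higher and 6 lower at involution day 2 (all 17.2% and 14.7%), and 12 were higher and 20 lower at day 4 (all 22.7% and 21.7%). At involution day 20 against virgin week 12, limma called 0 (8 higher and 7 lower at an unadjusted p under 0.05, all probe sets 1.27% and 1.37% called).

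Xbp1, a transcription factor of the unfolded protein response that also drives secretory cell differentiation, had 335, 421.5 and 370.5 at virgin week 12. Its mean signal was 773 at pregnancy day 14.5 (1.05 ± 0.21, adjusted p = 0.00042) and 1507 at lactation day 7 (2.01 ± 0.21, adjusted p = 1.2e-10). After weaning it was at 2001 on involution day 2 (0.41 ± 0.21, adjusted p = 0.13) and 1171 on day 4 (-0.36 ± 0.21, adjusted p = 0.16), neither called against lactation. The arrays read total Xbp1 transcript and not its splicing. The translocon partner Serp1 had 527, 546 and 500.5 in virgins and 4359, 4039 and 4134 at lactation day 7 (2.99 ± 0.19, adjusted p = 4.1e-17). It was lower by involution day 2, at a mean of 1238 (-1.75 ± 0.19, adjusted p = 6.5e-10). Tram1, which sits beside the channel, rose and fell alike (2.09 ± 0.19 and, at involution day 4, -1.61 ± 0.19).

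Several genes of the stress response rose at involution day 2. Ddit3 (CHOP), induced downstream of Atf4, had 35.8, 35.8 and 11.9 at lactation day 7 and 101, 102 and 62.4 at involution day 2 (1.80 ± 0.34, adjusted p = 5.8e-05). It was already higher at involution day 1 (1.47 ± 0.34, adjusted p = 0.00095), when Hspa5 was not called, but fitting only the 6 arrays ended that call of Ddit3 (adjusted p = 0.079). Creld2, an ER stress target, rose from 103, 88.9 and 83 to 554.5, 397 and 160.3 (1.85 ± 0.33, adjusted p = 2.1e-05), with mouse C the lowest as for the chaperones. The degradation factors Herpud1 and Sel1l and the co-chaperone Dnajb11 were higher on that day by 1.03 ± 0.23, 2.17 ± 0.38 and 1.52 ± 0.31. ERSE letters were in the promoters of Creld2, Dnajc3 and Ero1b, and ERSE-II letters in those of Dnajb11 and Herpud1, of the 45 genes of this list that were matched. Of the genes with these letters, Ero1b was not called at involution day 2. It was lower at involution days 1 and 4 than at lactation day 7. Atf4 ran the other way, higher at lactation day 7 than in virgins (0.80 ± 0.24, adjusted p = 0.0042) and lower at involution day 4 (-1.0 ± 0.24, adjusted p = 0.00058). The mannosidase Man1a, which trims glycans, had a probe set lower at lactation day 7 than in virgins, with 34.3, 20.8 and 48.7 at day 7 (-2.63 ± 0.32, adjusted p = 3.5e-09). At involution day 4 a Man1a probe set was higher (2.78 ± 0.32, adjusted p = 1.8e-09). In each of these comparisons the other of the 2 measured Man1a probe sets was not called. At lactation day 1 against pregnancy day 17.5 they were called in opposite directions, so no direction is given for the gene.

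**Figure D5:**
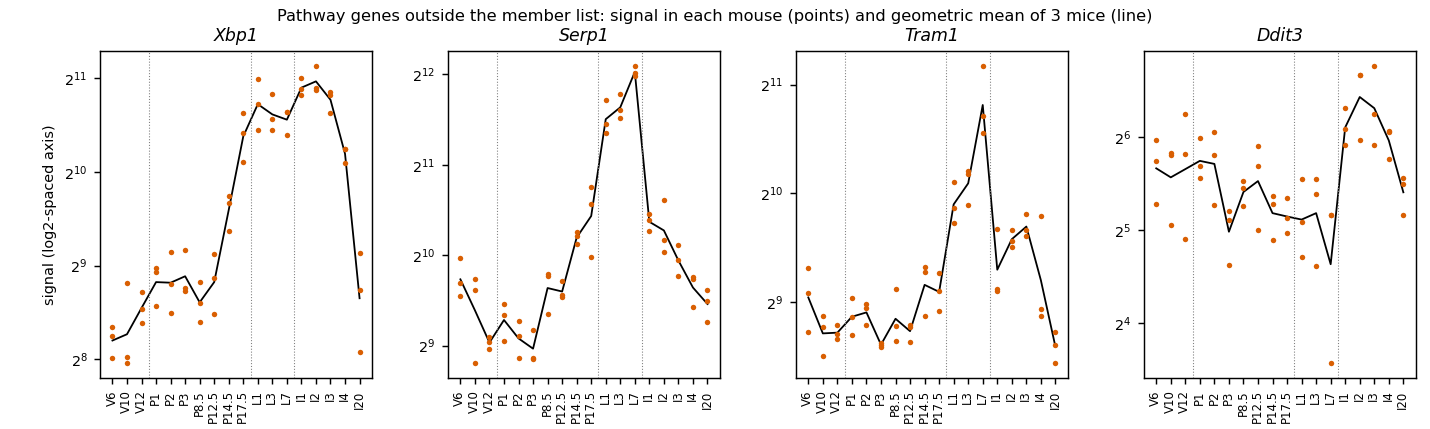
Signals (log2-spaced axis) of Xbp1, Serp1, Tram1 and Ddit3 over the 18 time points, with points for single mice and lines through the geometric means. Serp1 and Tram1 are high in lactation and drop after weaning, the mean of Xbp1 is 1507 at lactation day 7 and 1746 at involution day 3, and Ddit3 has a mean of 24.8 at lactation day 7.

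The courses of the members over the 18 time point means can be set beside those of the regulators as a description, given that all points come from the same arrays. The 5 members most like Xbp1 by Pearson's r of log2 means were Lman2 (0.94), Sec61a1 (0.90), P4hb (0.90), Arf1 (0.90) and Sec61b (0.89), and the 3 least like it were Kdelr3 (-0.76), Pdia5 (-0.82) and Sec23a (-0.89). The members most like Hspa5 were Pdia6 (0.75), Lman2 (0.74), Pdia4 (0.71), Sec61a1 (0.68) and Rpn1 (0.67), and those least like it were Sec62 (-0.45), Srp9 (-0.54) and Sec23a (-0.55). Sec23a had the lowest r to both. At lactation day 3, mouse A stood above the other mice for Hspa5 (1934, 1073 and 701), Hsp90b1 (1685.5, 747 and 719) and Pdia3 (396, 167 and 149). On involution day 3 the mean signals of Hspa5, Hsp90b1 and Pdia3 were 1649, 1347 and 585.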

How the data were processed

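The deposited table holds signal intensities that the authors computed with MAS5, per the submitters' processing notes. No version or genome build is given in the sources used here. The 66 control probe sets were left out. Intensities under 9.4, the 25th percentile, were set to 9.4 and taken to log2, and 8640 probe sets were kept whose 3 mice of any time point all exceeded 22.8 (the 40th percentile). A linear model with a mean for each time point was fitted to all 54 arrays (limma 3.58.1 with an eBayes trend, R 4.3.3), leaving 36 degrees of freedom and adding 6.80 prior ones. The tests, all two-sided, had Benjamini-Hochberg adjustment over all 8640. The depth of an array has no count, and 3 mice per time point limit the precision. The module, the lists and the rule for named genes (up to 4 largest rises and falls without overlap, plus fixed members, and the 5 most and 3 least like Hspa5 and Xbp1) were chosen with earlier results of these data known. Srp68, Sec24c, Sec11a, Stt3b and other members outside that rule, and the pathway genes' examples, were named after their values were seen. Of the non-control probe sets 10833 had 1 symbol, 396 several and 1193 none. For 10817 the gene identifier was found in the reference table, and 0 symbols changed. Replicate letters did not pair the mice across time points. Motifs were searched by exact letters on both strands of RefSeq promoters (GRCm38.p6). Tables were made with pandas 2.3.3 and numpy 2.4.6 under Python 3.11.15, and plots with matplotlib 3.10.9. Alternatives were other floors, normalizations, filters and fits, a replicate block and leaving out each array. Several probe sets carry f or r suffixes and may be less specific, among them the brightest of P4hb, Copb2, Sec62 and Rpn2. The probe set of Srp54b may share sequence with its near-identical copies.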

Additional observations from a re-analysis of the deposited data

How the results depend on the processing

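Of 456 named values, 178 were called, 76 of these lost the call under at least 1 alternative (55 under one other than leaving out an array), and 0 reversed. Member counts were as follows where they moved. At pregnancy day 14.5 (4 higher, 2 lower), median scaling gave 10 and 1 (all probe sets 1153 and 450). Fitting only the 6 arrays gave 18 and 4, array weights 17 and 5, and 1 probe set per gene 1 lower. Leaving out an array gave 2 to 3 higher and 0 to 3 lower. At lactation day 1 (31 and 0), only 6 arrays gave 15 higher, and no floor, quantile normalization and median scaling gave 1 lower each. The range was 23 to 32 higher and 0 to 1 lower. At lactation day 7 against day 1 (0 and 8), a floor at the 40th percentile gave 1 higher, no filter 3 higher, only 6 arrays 0 lower and weights 5 lower, with 3 to 6 lower on leaving out an array. Against virgin week 12 (35 and 8), 1 probe set per gene gave 5 lower, and the ranges were 28 to 35 and 6 to 10. The ranges at involution day 1 were 2 to 3 higher and 20 to 25 lower, at day 2 9 to 13 and 11 to 18, and at day 4 4 to 8 and 28 to 32. At involution day 20 (1 and 1), the floor at the 40th percentile and 1 probe set per gene gave 0 higher, median scaling and only 6 arrays 0 lower and weights 3 lower, with 0 to 1 on leaving out an array. The cause was not tested. With the letters as a replicate block the counts were 4 and 2, 31 and 0, 0 and 8, 35 and 8, 3 and 24, 9 and 33, 1 and 1, and, for involution day 2, 12 and 19, and the F test gave 77, so no count of calls moved by over 1.5 times. Correlations of same-lettered mice were -0.09 to 0.06. Dim probe sets near the floor of 9.4, such as Pdia5 and Srprb, are limited by background.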
